A study of Caenorhabditis elegans with 14 samples.

Results

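Small RNAs of Caenorhabditis elegans carrying pash-1(ram33[G179R]) were compared between mutants grown at 25 °C and mutants grown at 20 °C. The members were the 7 mutant libraries of the 14 in the series, chosen by genotype and temperature label, with 4 libraries at 25 °C and 3 at 20 °C. The remaining 7 libraries came from wild-type animals, again 4 at 25 °C and 3 at 20 °C, and are used here to show where the mutants differed. All were made from whole gravid adults, collected 54 h after L1 synchronization at 25 °C or 72 h after it at 20 °C. Every mutant library carried the same allele, which changes a glycine next to the first tryptophan of the PASH-1 WW domain to an arginine. According to the study, mutants at the higher temperature had developmental and fertility defects, and it names the developmental defects as a limit on reading single miRNAs there. Temperature is therefore not the only difference between the groups. The temperatures also differed in growth time and stood in separate tables, so temperature, growth time and table cannot be told apart. The study calls the replicates biological, and the p-values measure the spread between them.

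PASH-1, the C. elegans Pasha (DGCR8 in humans), is the RNA-binding partner of the RNase III enzyme DRSH-1 in the Microprocessor, the nuclear complex that cuts pri-miRNAs into pre-miRNA hairpins. Mirtrons are spliced introns that enter the miRNA pathway without this cut, and siRNAs and piRNAs are made without the Microprocessor. In the germline, 26G siRNAs fall into an ALG class, bound by the Argonautes ALG-3 and ALG-4 during spermatogenesis, and an ERGO class, bound by ERGO-1 in oocytes and embryos. The 22G siRNAs fall into a CSR class, which targets genes expressed in the germline, and a WAGO class, which targets silenced genes, and piRNAs are bound by the Argonaute PRG-1.

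The deposited values were rpm, read counts scaled to a fixed total within each library, for 23869 features in 8 classes. The depth estimated from the step between low values was 18800000 to 21500000 reads in 25 °C mutants and 18900000 to 22100000 in 20 °C mutants. The listed features held 812424 to 861432 rpm in 25 °C mutants and 862407 to 879385 rpm in 20 °C mutants, so the share of reads outside the listed features was higher in every 25 °C mutant library. The markers chosen for the tissue were present in all 7 libraries. They included the mir-35 family for embryos and oocytes, piRNAs and CSR-class siRNAs for the germline, ALG-class siRNAs for spermatogenesis and ERGO-class siRNAs for oogenesis and embryos. The somatic markers were lin-4-5p, let-7-5p and the muscle miRNA miR-1-3p. The neuronal miR-124-3p was the lowest single miRNA among them (6.33, 5.16, 7.28 and 7.86 rescaled rpm in 25 °C mutants, against 4.6, 5.4 and 3.14 in 20 °C mutants). Because whole animals were sequenced, fewer cells of a type and less RNA per cell cannot be told apart.

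For single features, the rpm were rescaled between the 7 mutant libraries by the median of ratios to their geometric means (rescaled rpm), and a feature was tested when its deposited rpm averaged at least 1 over them. Fold changes are on the log2(rescaled rpm + 0.1) scale, which understates the change of low features, and carry their SE and the limma p adjusted over all features tested. Of the 7676 features tested with limma, 1455 (19%) were higher and 1536 (20%) were lower at 25 °C at an adjusted p under 0.05. With a change of at least 2-fold as well, 705 (9.18%) were higher and 426 (5.55%) lower. This balance depended on the scaling: setting piRNA totals equal gave 1889 higher and 962 lower, and taking the size factors from the CSR class gave 1750 higher and 968 lower. Those scalings shifted the median change of all features by 0.18 and 0.15 on the log2 scale. Class totals and within-library ratios were set side by side with an exact permutation test (two-sided), for which 4 against 3 libraries allow 35 splits and no p below 0.0571. Of 10 totals and 38 ratios, 8 and 26 reached this smallest p, with Benjamini-Hochberg values of 0.0714 and 0.0835.

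The class that stood apart was the ALG-class 26G siRNAs. Their summed level was 2015, 2598, 2542 and 2216 rpm in 25 °C mutants, against 575, 532 and 477 rpm in 20 °C mutants. Every 25 °C mutant library was above every 20 °C mutant library, with a 4.43-fold difference between the means (exact permutation test, p = 0.0571). In wild-type the class totalled 254 ± 44.4 rpm at 25 °C (SD, n = 4) and 290.0 ± 68.1 rpm at 20 °C (SD, n = 3), and those ranges overlapped (exact permutation test, p = 0.4). The ERGO class, the other 26G class, was lower in every 25 °C mutant library in rpm. ERGO-class siRNAs summed to 1319, 1162, 1119.9 and 1175 rpm in 25 °C mutants and to 1495, 1631 and 1487 rpm in 20 °C mutants. After median-of-ratios scaling over the 14 libraries the ERGO totals overlapped, at 967 to 1204 in 25 °C mutants and 1193 to 1298 in 20 °C mutants (exact permutation test, p = 0.114), while the ALG totals did not. The ratio of ALG-class to ERGO-class reads within a library was 1.98 ± 0.348 in 25 °C mutants (SD, n = 4) and 0.344 ± 0.0353 in 20 °C mutants (SD, n = 3), and it was 0.264 ± 0.0359 at 25 °C and 0.332 ± 0.121 at 20 °C in wild-type. ALG-class siRNAs made up 60.4 to 69.4% of the 26G reads in 25 °C mutants and 24.3 to 27.8% in 20 °C mutants.

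**Figure D1:**
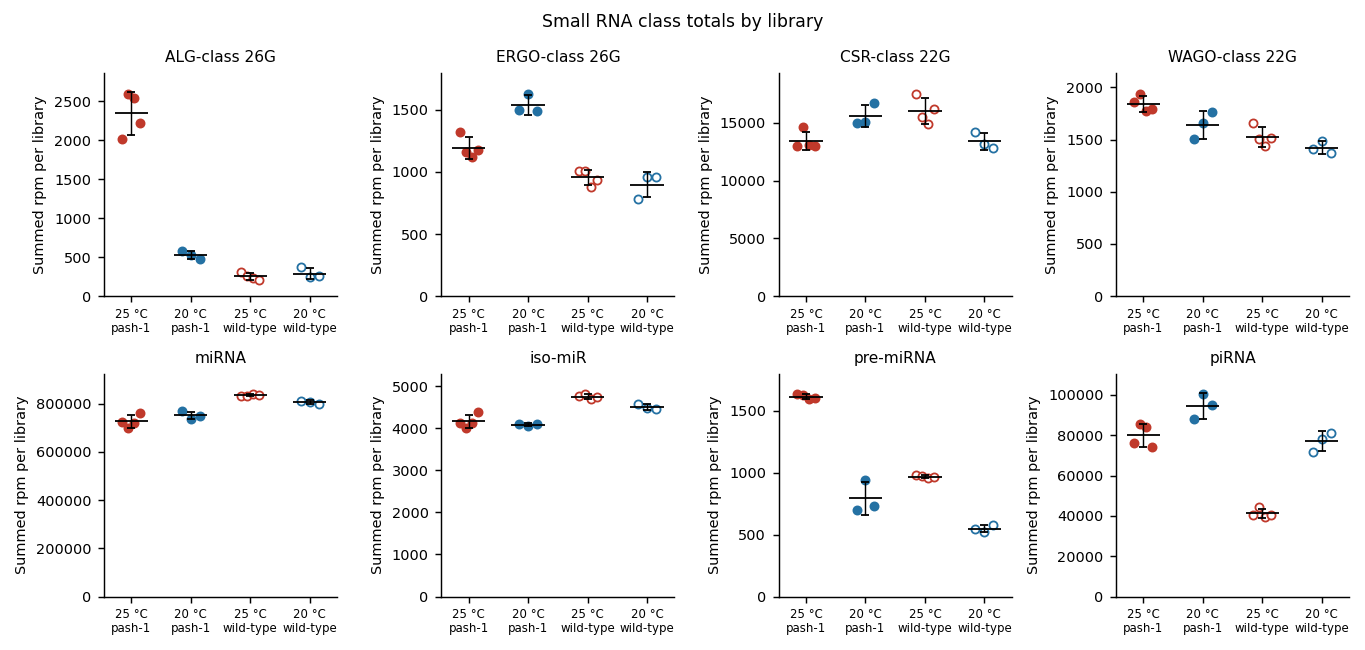
Summed rpm of each small RNA class, as deposited, for every library of pash-1(ram33[G179R]) mutants (filled) and wild-type (open) at 25 °C and 20 °C. Lines are means and bars are SD (n = 4 at 25 °C, n = 3 at 20 °C). The 25 °C mutants lie at 2015 to 2598 rpm for the ALG class, against 477 to 575 rpm in 20 °C mutants.

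Of the 1399 ALG-class features listed, 378 were tested, 373 (98.7%) of which were higher at 25 °C and 0 (0%) lower, and for 369 (97.6%) the groups did not overlap. This count is partly set by the filter, since 536 features averaged at least 1 rpm in 25 °C mutants but only 99 in 20 °C mutants, and those that passed through their 25 °C values had to differ. Among the 99 that averaged at least 1 rpm in 20 °C mutants alone, 96 were higher and 0 were lower in the fit on that filter, and the median ratio was 4.43-fold. Over all 1399 features, the 25 °C mutant libraries lay above every 20 °C mutant library for 939 and below every one for 0, while 36 were listed at 0 in all 7 libraries. Between 1278 and 1305 features were above 0 in each 25 °C mutant library and between 980 and 1096 in each 20 °C mutant library. A further count was of 48 features listed at 0 in every 20 °C mutant library and above 0 in every 25 °C mutant library, which together held 13.5 to 15.9 rpm per 25 °C library.

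The naming rule gave H08M01.1, C10C6.3 and sulp-6, a sulfate permease family gene, each of which reached its mean of 5 rpm only through the 25 °C libraries. Their values are therefore a description, with no test. H08M01.1 siRNAs had 7.01, 8.84, 9.81 and 8.29 rescaled rpm in 25 °C mutants, against 0.831, 0.98 and 0.299 in 20 °C mutants. C10C6.3 siRNAs had 8.04, 9.8, 8.88 and 7.42 rescaled rpm in 25 °C mutants, against 1.15, 1.28 and 0.299 in 20 °C mutants. For sulp-6 the values were 9.42, 10.8, 10.1 and 8.83 rescaled rpm in 25 °C mutants, against 1.43, 0.98 and 0.589 in 20 °C mutants. In each the lowest 25 °C library was above the highest 20 °C library. The most abundant ALG-class features, named after their values were seen, were C38C10.3, Y57G11C.36, ZK1010.5, F57B9.8 and K11C4.1. C38C10.3 had 75.3, 94.2, 84.9 and 79.1 rescaled rpm in 25 °C mutants, against 16.1, 12.3 and 12.2 in 20 °C mutants (log2 fold change 2.62 ± 0.11, SE, adjusted p = 9.28e-17), and ZK1010.5, F57B9.8 and K11C4.1 rose by 2.39, 2.76 and 2.75 on the log2 scale. Y57G11C.36 was the exception, with 53.5, 48.5, 44.7 and 47.4 rescaled rpm in 25 °C mutants, against 51.4, 51.9 and 57.02 in 20 °C mutants (log2 fold change -0.14 ± 0.09, SE, adjusted p = 0.246), and it was the most abundant ALG-class feature in 20 °C mutants. Its small difference changed sign when libraries were scaled to piRNAs or to CSR-class siRNAs. Without it, the class total differed 4.86-fold.

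**Figure D2:**
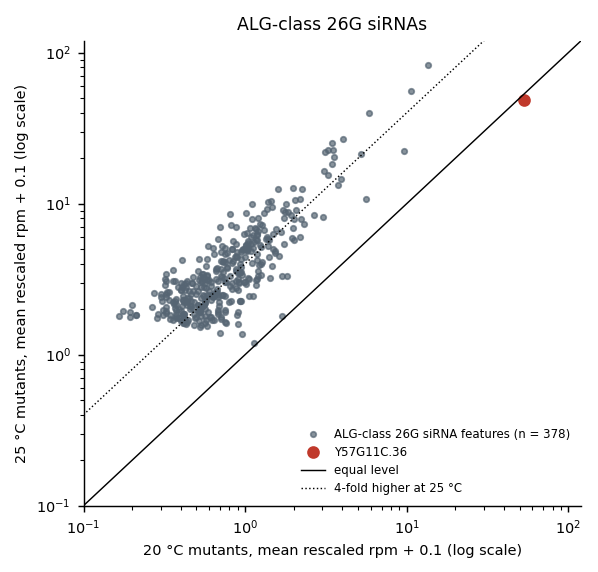
Mean level of each of the 378 tested ALG-class 26G features in 25 °C mutants (vertical, n = 4) against 20 °C mutants (horizontal, n = 3), in rescaled rpm plus 0.1 on log axes. The solid line marks equal levels and the dotted line a 4-fold higher level at 25 °C. Y57G11C.36 (red) lies near the line of equal levels.

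Sperm genes were taken as a list of genes named msp, spe, ssp and msd, with gsp-3 and gsp-4. Of the 24 with an ALG-class feature, 19 had every 25 °C mutant library above every 20 °C mutant library, beside 939 of all 1399 listed ALG-class features. The reverse held for 0 of the 24, and 3 averaged at least 1 rpm in 20 °C mutants alone. All 7 that were tested were higher, as were 98.7% of all tested ALG-class features, so the count shows nothing particular to sperm genes. For spe-6, which encodes a casein kinase-like protein needed in spermatogenesis, siRNAs had 8.04, 8.14, 7.39 and 8.4 rescaled rpm in 25 °C mutants, against 1.47, 0.832 and 0.982 in 20 °C mutants (log2 fold change 2.79 ± 0.20, SE, adjusted p = 1.15e-11). For ssp-16, a sperm-specific protein gene, they had 6.13, 9.8, 9.81 and 7.47 rescaled rpm in 25 °C mutants, against 2.48, 3.63 and 1.62 in 20 °C mutants (log2 fold change 1.69 ± 0.22, SE, adjusted p = 4.67e-07). Of the germ granule and small RNA pathway genes, alg-3 and alg-4 themselves carried ALG-class siRNAs. Those of alg-3 had 1.64, 1.88, 2.45 and 2.86 rescaled rpm in 25 °C mutants, against 0.253, 0.194 and 0.496 in 20 °C mutants and those of alg-4 2.04, 1.32, 1.79 and 2.75 rescaled rpm in 25 °C mutants, against 0.345, 0.0462 and 0.103 in 20 °C mutants. The heat shock list had 1 tested ALG-class feature, dnj-19, a DnaJ-domain chaperone gene, with 1.72, 1.35, 1.65 and 1.53 rescaled rpm in 25 °C mutants, against 0.456, 0.25 and 0.196 in 20 °C mutants. These 3 features passed the filter only through their 25 °C values, so no test is given for them. ALG-class features lay on every autosome (each holding 15.2% to 24.7% of those listed), and 1 of the 1399 lay on chromosome X.

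ERGO-class features were mostly lower in 25 °C mutants, with 27 of 49 tested (55.1%) lower, 1 (2.04%) higher and a median log2 change of -0.41. The lower count was 14 with piRNA-total scaling and 15 with scaling to CSR-class siRNAs. The most abundant was Y17D7C.3, with 327, 253, 249 and 295 rescaled rpm in 25 °C mutants, against 368, 368 and 338 in 20 °C mutants (log2 fold change -0.36 ± 0.09, SE, adjusted p = 0.00171). This call was lost with piRNA-total scaling (-0.17, adjusted p = 0.155), with CSR-class scaling (-0.20, adjusted p = 0.149) and with limma's plain eBayes, which has no trend or robust option, (adjusted p = 0.0892). Y116F11A.1 had 73.8, 61.6, 59.4 and 57.1 rescaled rpm in 25 °C mutants, against 114, 107 and 103 in 20 °C mutants (log2 fold change -0.78 ± 0.09, SE, adjusted p = 8.63e-08). The largest decreases by the naming rule were at F39F10.4 (log2 fold change -1.29 ± 0.16, SE, adjusted p = 2.71e-07), F52D2.6 (log2 fold change -1.004 ± 0.11, SE, adjusted p = 1.92e-08) and T02G6.10 (log2 fold change -0.97 ± 0.15, SE, adjusted p = 3.83e-06). The other abundant features, T05E12.10, F39E9.7 and K02E2.6, had log2 changes of -0.17, -0.21 and -0.11 that did not pass the test.

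CSR-class 22G siRNAs summed to 12996 to 14623 rpm in 25 °C mutants and 14990.3 to 16696 rpm in 20 °C mutants, without overlap, but as a share of listed rpm the ranges overlapped (exact permutation test, p = 0.171). Of 2557 features tested, 290 (11.3%) were lower and 35 (1.37%) higher, and this split became 76 lower and 100 higher with piRNA-total scaling and 93 and 80 with scaling to the class itself. Single libraries moved it as well: without 20 °C mutant replicate 1 there were 172 lower and 23 higher, without replicate 2 there were 286 and 21, and without replicate 3 there were 175 and 33. WAGO-class siRNAs summed to 1776 to 1940.2 rpm in 25 °C mutants and 1503 to 1767 rpm in 20 °C mutants, with 91 of 414 tested features (22%) higher and 4 (0.966%) lower. With the filter set on 20 °C mutants alone, 47 WAGO-class features were higher and 4 lower. Part of the 91 therefore passed the filter only through their 25 °C values, and the 22% is partly set by the filter. The ratio of CSR-class to WAGO-class reads, which does not depend on scaling, was 7.29 ± 0.211 in 25 °C mutants and 9.52 ± 0.423 in 20 °C mutants (SD, n = 4 and 3, exact permutation test, p = 0.0571). In wild-type it was 10.49 ± 0.18 at 25 °C and 9.44 ± 0.631 at 20 °C, so the direction there was the opposite.

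Most of the CSR-class siRNAs in the gene lists did not pass the test. None of 15 oocyte and early embryo genes was called in the limma test, and 0 of them had an unadjusted p under 0.05. Of these, rme-2, the yolk receptor, had 18.5, 17.9, 16.01 and 20.2 rescaled rpm in 25 °C mutants, against 22.3, 16.3 and 23.9 in 20 °C mutants (log2 fold change -0.19 ± 0.13, SE, adjusted p = 0.261). Among 11 tested germ granule and small RNA pathway genes 2 were lower. These were csr-1, the Argonaute of the class, with 19.7, 21.2, 18.4 and 25.1 rescaled rpm in 25 °C mutants, against 29.8, 25.9 and 34.01 in 20 °C mutants (log2 fold change -0.50 ± 0.12, SE, adjusted p = 0.00111), and glh-1, a Vasa-like P granule helicase, with 19.7, 20.1, 20.6 and 18.6 rescaled rpm in 25 °C mutants, against 26.5, 24.02 and 28.7 in 20 °C mutants (log2 fold change -0.41 ± 0.11, SE, adjusted p = 0.00249). Of 11 tested heat shock genes 2 were lower and 0 higher, namely hsp-60, the mitochondrial chaperonin (log2 fold change -0.41 ± 0.11, SE, adjusted p = 0.00272), and the DnaJ-domain gene dnj-10 (log2 fold change -0.60, adjusted p = 0.0477). Histone genes gave 0 calls among 2 CSR-class features, 1 of which had an unadjusted p under 0.05, and 1 WAGO-class feature, and the yolk list had no tested siRNA feature. The collagen list gave 0 calls among 4 CSR-class features, which included the dosage compensation genes dpy-21, dpy-28 and dpy-30, and 1 among 1 WAGO-class feature, col-71 (log2 fold change 1.03 ± 0.25, SE, adjusted p = 0.00178). Over all tested CSR-class features 11.3% were lower. The calls of csr-1, glh-1, hsp-60, dnj-10, col-71, spe-6 and ssp-16 were not repeated under the alternative analyses. Over the whole CSR class, the lower count was 76 with piRNA-total scaling and 93 with CSR-class scaling.

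By the naming rule, the CSR-class increases were Y55F3AR.2 (log2 fold change 0.94 ± 0.14, SE, adjusted p = 3.9e-06), C27B7.5 (log2 fold change 0.85 ± 0.13, SE, adjusted p = 7.33e-06) and lin-61, a chromatin protein gene (log2 fold change 0.59 ± 0.17, SE, adjusted p = 0.0075). The decreases were F01G4.4 (log2 fold change -0.93 ± 0.12, SE, adjusted p = 5.09e-07), F59B8.2 (log2 fold change -0.80 ± 0.16, SE, adjusted p = 0.000178) and ehs-1, an endocytic adaptor gene (log2 fold change -0.78 ± 0.19, SE, adjusted p = 0.00194). Of the most abundant CSR-class features, K11D9.1 and snrp-200, a spliceosomal helicase gene, were lower (log2 fold changes -0.23 and -0.30), while F15E6.1, C41G7.2 and cls-2, a microtubule-binding CLASP gene, had -0.11, 0.00 and 0.19 and were not called. WAGO-class increases were C04G2.10 (log2 fold change 0.96 ± 0.17, SE, adjusted p = 4.67e-05), the cadherin gene cdh-12 (log2 fold change 0.90 ± 0.18, SE, adjusted p = 0.000153) and F39E9.10 (log2 fold change 0.75 ± 0.18, SE, adjusted p = 0.00163), and the decreases were Y57G11C.51 (log2 fold change -0.69 ± 0.12, SE, adjusted p = 2.6e-05) and T05E12.8 (log2 fold change -0.33 ± 0.11, SE, adjusted p = 0.0181). The abundant WAGO-class features Y52B11A.18, Y17D7C.3 and F02C12.3 had log2 fold changes of -0.19, -0.02 and 0.30, of which that of F02C12.3 passed the test, although not without 25 °C mutant replicate 1 or either of 20 °C mutant replicates 2 and 3. With piRNA-total and CSR-class scaling the calls of snrp-200 (-0.12 and -0.14, adjusted p = 0.321 and 0.272), K11D9.1 (-0.046 and -0.072) and T05E12.8 (-0.15 and -0.17) were lost, and all of them, with F02C12.3, missed the threshold with plain eBayes. The calls of K11D9.1 and T05E12.8 were lost too when single libraries were left out, T05E12.8 without 20 °C mutant replicate 2 (adjusted p = 0.0593) and K11D9.1 without 25 °C mutant replicates 1 or 3 or 20 °C mutant replicates 1 or 3. Some genes with a listed ALG-class 26G feature also had tested 22G siRNAs, of which 8 of 20 (40.0%) in the WAGO class and 3 of 251 (1.2%) in the CSR class were higher, beside 22% and 1.37% of the whole classes. Among the fewer genes whose ALG-class feature was itself called, 4 of 5 and 2 of 19 were higher. Those genes were chosen by calls in these same libraries, and the filter let in ALG-class features through their 25 °C values. These counts are therefore a description, with no test.

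**Figure D3:**
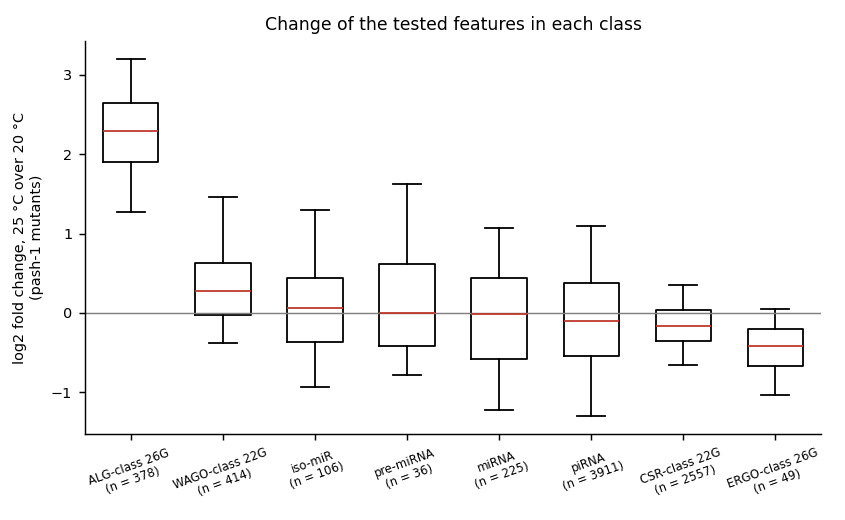
Log2 fold change of 25 °C over 20 °C mutants for the tested features of each class. Boxes span the quartiles, the red line is the median and whiskers reach the 5th and 95th percentiles. Medians run from 2.29 for ALG-class 26G siRNAs, where the filter let in features through their 25 °C values, to -0.41 for ERGO-class 26G siRNAs.

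Total piRNA was 76099, 85749.5, 83831 and 73966 rpm in 25 °C mutants, against 87831, 100531 and 95123 rpm in 20 °C mutants. The ranges did not overlap in rpm (exact permutation test, p = 0.0571), but they did as a share of listed rpm (p = 0.171, exact) and relative to miRNA reads, where piRNAs were 11.02 ± 1.14% in 25 °C mutants and 12.6 ± 1.1% in 20 °C mutants (SD, n = 4 and 3). In wild-type piRNAs were 4.93 ± 0.285% of miRNA reads at 25 °C and 9.56 ± 0.685% at 20 °C, a larger gap. Individual piRNAs moved both ways, with 1111 of 3911 tested (28.4%) lower and 843 (21.6%) higher. This majority turned round when piRNA totals were set equal (795 lower and 1119 higher) and with scaling to the CSR class (783 lower and 1023 higher). In the reported scaling the abundant end leaned lower: of the 180 most abundant piRNAs, those averaging 100 rpm or more, 90 were lower and 36 higher. Their median log2 change was -0.22, and setting piRNA totals equal shifted the median change of all features by 0.18. These 180 were not counted again under the other scalings.

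The most abundant piRNA was 21ur-3421, with 1354, 1445, 1415 and 1109.9 rescaled rpm in 25 °C mutants, against 1806, 1952 and 1845 in 20 °C mutants (log2 fold change -0.50 ± 0.08, SE, adjusted p = 2.41e-05). The next, 21ur-5504, 21ur-2290, 21ur-5107 and 21ur-5410, were lower by 0.50, 0.71, 0.53 and 0.25 on the log2 scale. The call of 21ur-5410 was lost with piRNA-total scaling (-0.066, adjusted p = 0.576), with CSR-class scaling (-0.092, adjusted p = 0.49) and with plain eBayes (adjusted p = 0.142). By the naming rule, 21ur-5213 fell to 6.97, 7.96, 7.69 and 6.43 rescaled rpm in 25 °C mutants, against 36.4, 38.3 and 33.2 in 20 °C mutants (log2 fold change -2.30 ± 0.12, SE, adjusted p = 1.15e-14), followed by 21ur-3740 (log2 fold change -2.33 ± 0.14, SE, adjusted p = 3.18e-13) and 21ur-954 (log2 fold change -2.14 ± 0.21, SE, adjusted p = 2.22e-09). These 3 were also lower in wild-type at 25 °C, with log2 changes of -2.50, -1.85 and -2.21. In the other direction, 21ur-6420 had 8.88, 7.78, 7.69 and 7.04 rescaled rpm in 25 °C mutants, against 1.1, 1.62 and 2.26 in 20 °C mutants. It reached the mean of 5 rpm only through the 25 °C libraries, so its values are a description, with no test. The rule also named 21ur-6401 (log2 fold change 2.00 ± 0.17, SE, adjusted p = 1.85e-10) and 21ur-3971 (log2 fold change 1.89 ± 0.14, SE, adjusted p = 1.33e-11). Of the 15363 listed piRNAs, 95.8% lay on chromosome IV. Across the 3510 piRNAs tested in all 14 libraries, mutant and wild-type changes correlated (Pearson r = 0.79, Spearman rho = 0.77), as a description across piRNAs that share library, depth and table and are not replicates.

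Total miRNA was 723722, 700722, 720422 and 763305 rpm in 25 °C mutants and 768192, 737963 and 748939 rpm in 20 °C mutants, with overlapping ranges (exact permutation test, p = 0.229). The sign of this difference reversed as a share of listed rpm and after rescaling. Individual miRNAs differed in both directions, with 73 of 225 tested (32.4%) higher and 78 (34.7%) lower, and a median log2 change of -0.02. At 2-fold or more, 15 (6.67%) were higher and 21 (9.33%) lower. Setting piRNA totals equal gave 97 higher and 58 lower. Of 11 miRNA families and lists fixed by name, the share of miRNA reads was higher in every 25 °C mutant library for 4, lower in every one for 2 and overlapping for 5.

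The mir-35 family, embryo and oocyte miRNAs that are required for embryonic development, was lower in 25 °C mutants. It made up 9.65, 8.32, 8.28 and 8.78% of miRNA reads in 25 °C mutants, against 13.2, 13.9 and 12.1% in 20 °C mutants (exact permutation test, p = 0.0571). In wild-type the shares were 24.1 ± 1.26% at 25 °C and 22.3 ± 1.43% at 20 °C, with overlap. All 8 members passed the test in mutants, beside 34.7% of all tested miRNAs that were lower, with log2 changes of -0.36 to -1.01. miR-35-3p, processed from a hairpin at II:11537608-11537704 of WBcel235, had 37768, 28695, 30079 and 33536 rescaled rpm in 25 °C mutants, against 45755, 42338 and 38171 in 20 °C mutants (log2 fold change -0.38 ± 0.09, SE, adjusted p = 0.00094). miR-39-3p fell the furthest, with 6047, 4655, 4945 and 5909 rescaled rpm in 25 °C mutants, against 11829, 11223 and 9477 in 20 °C mutants (log2 fold change -1.01 ± 0.09, SE, adjusted p = 7.39e-10). Within the family the ratio of miR-39-3p to miR-35-3p was 0.166 ± 0.0072 in 25 °C mutants and 0.257 ± 0.00847 in 20 °C mutants, without overlap. The smallest change was that of miR-42-3p (log2 fold change -0.36 ± 0.13, SE, adjusted p = 0.0472), whose hairpin lies apart from mir-35 at II:11889811-11889905. Its groups overlapped, and its call was lost in 13 of 21 alternative analyses, including those without 25 °C mutant replicates 2, 3 or 4 or 20 °C mutant replicates 1 or 2. The call of miR-35-3p was lost in 4 and that of miR-38-3p in 3, among them piRNA-total scaling (-0.19 and -0.27) and CSR-class scaling (-0.22 and -0.30). In wild-type, miR-39-3p and miR-42-3p were higher at 25 °C, with log2 changes of 0.27 and 1.37. The mutant change minus the wild-type change was -1.25 ± 0.12 (SE, adjusted p = 2.96e-10) for miR-39-3p and -1.68 ± 0.17 (SE, adjusted p = 1.68e-08) for miR-42-3p. For miR-42-3p most of this difference lay in the wild-type rise. The difference was negative and past the threshold for all 8 members, as for 46.1% of all tested miRNAs. With scaling to CSR-class siRNAs it was smaller and missed the threshold for miR-35-3p (-0.20, adjusted p = 0.281), miR-36-3p (-0.28, adjusted p = 0.117), miR-37-3p (-0.38, adjusted p = 0.0588) and miR-40-3p (-0.34, adjusted p = 0.112). For miR-41-3p this difference missed the threshold in most alternatives, with adjusted p of 0.0586 to 0.135 without each of the 25 °C mutant libraries in turn or without 20 °C mutant replicates 1 or 2, and it turned positive with scaling to CSR-class siRNAs. Of the oocyte and embryo markers, the mir-35 share was lower in the 4 libraries in which the spermatogenesis marker, the ALG-class total, was higher. The ERGO-class total was lower in each of them in rpm and as a share of listed rpm. After rescaling over 14 libraries its mean was lower in 25 °C mutants (1051 against 1261 in 20 °C mutants), but the ranges overlapped. The part of such shifts in the other results was not tested.

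Among developmental timing miRNAs, 3 of 4 members of the let-7 family were higher, beside 32.4% of all tested miRNAs. The family held 10.49, 10.9, 10.7 and 10.2% of miRNA reads in 25 °C mutants, against 6.98, 6.84 and 7.01% in 20 °C mutants (exact permutation test, p = 0.0571), and 5.23 ± 0.221% at 25 °C and 5.1 ± 0.129% at 20 °C in wild-type. Most of it was miR-48-5p (V:14364412-14364509), with 65774, 59649.5, 62936 and 65921 rescaled rpm in 25 °C mutants, against 43331, 36521 and 39352 in 20 °C mutants (log2 fold change 0.68 ± 0.08, SE, adjusted p = 3.38e-08). miR-84-5p (log2 fold change 0.59 ± 0.08, SE, adjusted p = 6.38e-07) and miR-241-5p (log2 fold change 0.74 ± 0.09, SE, adjusted p = 2.17e-07) were also higher. let-7-5p had 4014, 3795, 4105 and 4134 rescaled rpm in 25 °C mutants, against 4642, 4533 and 4071 in 20 °C mutants and did not pass the test (log2 fold change -0.14 ± 0.08, SE, adjusted p = 0.161), and its sign flipped with piRNA-total and CSR-class scaling, while with rpm as deposited it passed as lower (adjusted p = 0.02). The ratio of miR-48-5p to let-7-5p was 15.8 ± 0.44 in 25 °C mutants and 9.02 ± 0.85 in 20 °C mutants, beside 8.48 ± 0.703 at 25 °C and 8.62 ± 1.38 at 20 °C in wild-type.

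The lin-4 family, another timing family, split. lin-4-5p (II:5902254-5902347, in an intron of F59G1.4) had 2344, 1978, 2298 and 1779.7 rescaled rpm in 25 °C mutants, against 1642, 1389 and 1596 in 20 °C mutants (log2 fold change 0.44 ± 0.09, SE, adjusted p = 0.00023). With plain eBayes this call was lost (adjusted p = 0.0507). Its relative miR-237-5p (X:8154084-8154182) had 811, 772, 876 and 758 rescaled rpm in 25 °C mutants, against 1559.7, 1438 and 1366 in 20 °C mutants (log2 fold change -0.85 ± 0.08, SE, adjusted p = 8.1e-10). The groups did not overlap for either, so their ratio was 2.89, 2.56, 2.62 and 2.35 in 25 °C mutants, against 1.05, 0.966 and 1.17 in 20 °C mutants (exact permutation test, p = 0.0571), while in wild-type it was 0.803 ± 0.0303 at 25 °C and 0.913 ± 0.203 at 20 °C. The share of the family as a whole overlapped between groups (0.324 to 0.449% in 25 °C mutants and 0.411 to 0.423% in 20 °C mutants).

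miR-70-3p, from a hairpin in an intron of pmp-5 (V:6665536-6665635), fell to 2716, 2599, 2898 and 2497 rescaled rpm in 25 °C mutants, against 8955, 8481 and 8394 in 20 °C mutants (log2 fold change -1.69 ± 0.08, SE, adjusted p = 3.75e-16). It held 0.371 ± 0.0404% of miRNA reads in 25 °C mutants and 1.2 ± 0.0465% in 20 °C mutants, beside 1.73 ± 0.0536% at 25 °C and 1.92 ± 0.104% at 20 °C in wild-type. The mutant change minus the wild-type change was -1.82 ± 0.10 (SE, adjusted p = 2.05e-16). The other arm, miR-70-5p, fell as well (log2 fold change -1.30 ± 0.15, SE, adjusted p = 8.11e-08). Further decreases of at least 2-fold named by the rule were miR-58b-5p, miR-4811-3p, miR-1819-3p, miR-789-5p, miR-1830-3p, miR-253-3p, miR-8202-5p and miR-2212-5p, with log2 changes of -2.26 to -1.30, of which miR-4811-3p and miR-8202-5p passed the filter only through their 20 °C values. miR-58b-5p had 5.15, 3.02, 4.03 and 4.8 rescaled rpm in 25 °C mutants, against 21.2, 19.8 and 19.8 in 20 °C mutants (log2 fold change -2.26 ± 0.16, SE, adjusted p = 6.13e-12), and its wild-type change was -2.29.

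**Figure D4:**
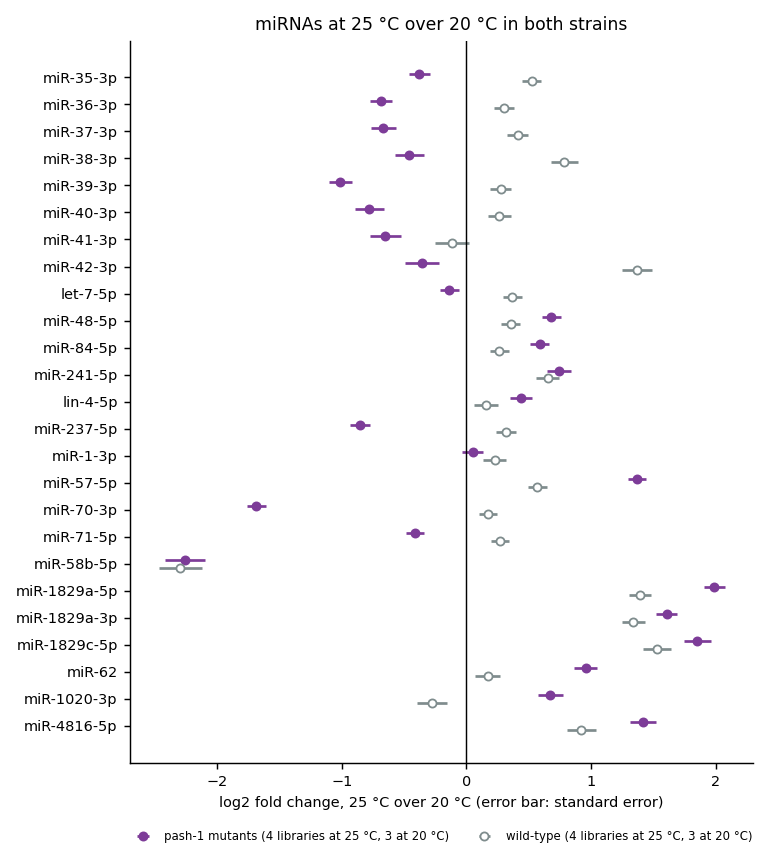
Log2 fold change of 25 °C over 20 °C for 25 miRNAs in pash-1(ram33[G179R]) mutants (filled) and wild-type (open), each from 4 libraries at 25 °C and 3 at 20 °C. Bars are standard errors. Mutant changes of the mir-35 family run from -0.36 to -1.01, and miR-58b-5p lies near -2.3 in both strains.

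Increases were led by miR-5549-3p (log2 fold change 2.16 ± 0.22, SE, adjusted p = 5.9e-09), which had 6.72, 7.09, 6.71 and 7.74 rescaled rpm in 25 °C mutants, against 1.25, 1.08 and 2.46 in 20 °C mutants. miR-57-5p (II:7850499-7850597), known for a role in posterior patterning of embryos, was the most abundant of the 10 largest increases, with 5728, 5054, 5186 and 5269 rescaled rpm in 25 °C mutants, against 2119.9, 1954 and 2094 in 20 °C mutants (log2 fold change 1.37 ± 0.08, SE, adjusted p = 2.8e-14). The rule also named miR-8208-3p, miR-4936 and miR-255-5p, with log2 changes of 1.82, 1.501 and 1.34, along with miR-1829a-5p, miR-1829c-5p, miR-1829a-3p and both arms of miR-4816.

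The miR-1829 family, whose hairpins lie in introns on chromosome X, was listed here with both arms of miR-4812. Of its 8 tested members 7 were higher, beside 32.4% of all tested miRNAs. It held 0.2, 0.204, 0.195 and 0.196% of miRNA reads in 25 °C mutants, against 0.0669, 0.0673 and 0.071% in 20 °C mutants. In wild-type it was also higher at 25 °C (0.0519 ± 0.00261% against 0.0245 ± 0.00161% at 20 °C), so the direction was shared. miR-1829a-5p (X:15588311-15588370, in an intron of gas-1) had 669, 593, 621 and 723 rescaled rpm in 25 °C mutants, against 176, 147 and 169 in 20 °C mutants (log2 fold change 1.99 ± 0.08, SE, adjusted p = 1.04e-16), and its mutant change exceeded the wild-type change by 0.64 ± 0.12 (SE, adjusted p = 0.000154). With piRNA totals set equal this excess was 0.15 and missed the threshold (adjusted p = 0.401). Of the 8 members, the mutant change minus the wild-type change passed the threshold as positive for 1 and as negative for 2. The median log2 change of the family was 1.05 in mutants and 1.37 in wild-type, so the family as a whole did not rise more in mutants. miR-1829b-5p did not pass the test (log2 fold change 0.18 ± 0.12, SE, adjusted p = 0.242), and miR-4812-3p lost its call without 20 °C mutant replicate 2 (adjusted p = 0.148). The values of miR-1829b-3p, miR-1829c-3p and the hairpin feature F39B1.3 were nearly equal in every library, so the locus of those reads is uncertain. The calls of miR-1829b-3p and miR-1829c-3p are therefore not independent members of the count.

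Among mirtrons, 6 of 8 tested members were higher and 0 lower, beside 32.4% and 34.7% of all tested miRNAs, and 4 others below the filter. Their share of miRNA reads was 0.0443 ± 0.00305% in 25 °C mutants and 0.0227 ± 0.000581% in 20 °C mutants, while wild-type had 0.0101 ± 0.000699% at 25 °C and 0.0103 ± 0.000809% at 20 °C (exact permutation tests, p = 0.0571 in mutants and 0.743 in wild-type). miR-62 (X:12692608-12692665, in an intron of ugt-50) had 156, 129.6, 149 and 125 rescaled rpm in 25 °C mutants, against 78.96, 69.9 and 66.5 in 20 °C mutants (log2 fold change 0.96 ± 0.09, SE, adjusted p = 1.81e-09). miR-1020-3p (III:10047746-10047815, in an intron of T16G12.1) had 63.2, 48.2, 60.8 and 50.2 rescaled rpm in 25 °C mutants, against 34.2, 34.96 and 34.6 in 20 °C mutants (log2 fold change 0.67 ± 0.10, SE, adjusted p = 3.66e-06). miR-4816-5p, from an intron of T09B4.2, rose the most (log2 fold change 1.42 ± 0.11, SE, adjusted p = 1.57e-11). miR-4920 and miR-1020-5p did not pass the test, and without 20 °C mutant replicate 3 neither did miR-4926 (adjusted p = 0.177), nor did it in the fit over 14 libraries (adjusted p = 0.151).

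**Figure D5:**
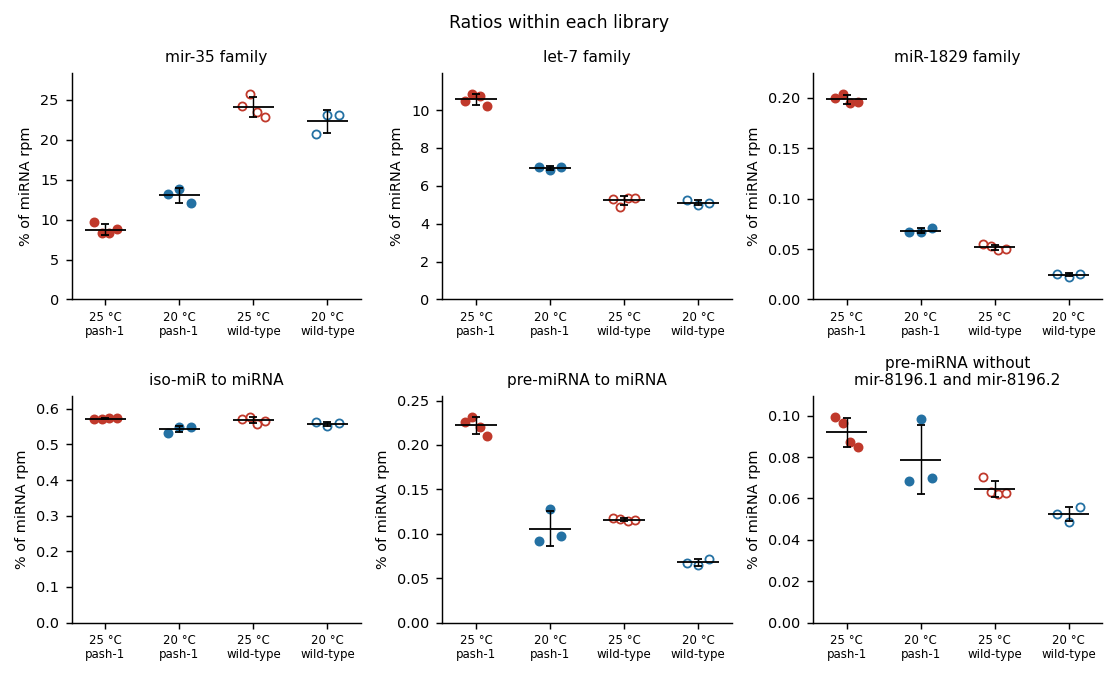
Ratios within each library, as a percentage of miRNA rpm, in mutants (filled) and wild-type (open) at 25 °C and 20 °C. Lines are means and bars are SD (n = 4 at 25 °C, n = 3 at 20 °C). The mir-35 family held 8.28 to 9.65% in 25 °C mutants and 12.1 to 13.9% in 20 °C mutants.

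In the remaining miRNA families some members were called and others were not, beside 32.4% higher and 34.7% lower over all tested miRNAs. The miR-51 family, which acts in pharynx attachment, had 3 members higher and 2 lower among 6, with miR-53-5p (log2 fold change 0.58 ± 0.09, SE, adjusted p = 4.94e-06) and miR-51-5p (log2 fold change -0.51 ± 0.08, SE, adjusted p = 8.03e-06) at the ends. The smaller increases of miR-52-5p and miR-54-3p lost their calls without 20 °C mutant replicate 3 (adjusted p = 0.0612 and 0.146), and with plain eBayes (adjusted p = 0.113 and 0.245), and that of miR-54-3p also without 25 °C mutant replicate 1 or 20 °C mutant replicate 2. miR-54-3p missed the threshold with rpm as deposited (adjusted p = 0.0781) and with a mean of at least 5 rpm (adjusted p = 0.0509) as well. The miR-58 family, relatives of bantam in flies, had 1 lower member, miR-81-3p (log2 fold change -0.27 ± 0.08, SE, adjusted p = 0.00472), among 4 tested. This call was lost with piRNA-total scaling (-0.089, adjusted p = 0.44), with CSR-class scaling (-0.12, adjusted p = 0.381) and with plain eBayes (adjusted p = 0.116). miR-58a-3p had 64676, 55574, 63623 and 72647 rescaled rpm in 25 °C mutants, against 64338, 57356 and 59138 in 20 °C mutants (log2 fold change 0.08 ± 0.08, SE, adjusted p = 0.452), but it passed as higher with piRNA-total scaling (0.27, adjusted p = 0.0297) and CSR-class scaling (0.24, adjusted p = 0.0441). In the miR-64 cluster, miR-63-3p (log2 fold change -0.84 ± 0.08, SE, adjusted p = 9.06e-10) and miR-229-5p (log2 fold change -0.49 ± 0.08, SE, adjusted p = 1.9e-05) were lower and the other 3 members did not pass. The shares of the miR-51 and miR-58 families and of the miR-64 cluster overlapped between 25 °C and 20 °C mutants. The miR-44 family was 6.06 ± 0.18% of miRNA reads in 25 °C mutants and 5.24 ± 0.0576% in 20 °C mutants, and it moved the same way in wild-type. Its miR-247-3p was lower (log2 fold change -1.18 ± 0.30, SE, adjusted p = 0.00257). miR-44-3p and miR-45-3p were higher (log2 fold change 0.45 ± 0.08, SE, adjusted p = 6.07e-05) but had identical values and cannot be told apart.

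The list of stress and lifespan miRNAs held a lower share in 25 °C mutants (11.8 ± 0.42%) than in 20 °C mutants (13.6 ± 0.264%), without overlap. This difference lay largely in miR-71-5p, which alone held 5.21 ± 0.186% in 25 °C mutants and 6.99 ± 0.109% in 20 °C mutants (SD, n = 4 and 3). Of the 9 tested members of the list 3 were lower and 1 higher, beside 34.7% and 32.4% of all tested miRNAs, so the count of lower members was near the background. miR-71-5p, which promotes longevity and stress resistance, had 39851, 35218, 37318 and 38665 rescaled rpm in 25 °C mutants, against 53409.5, 48147 and 49302 in 20 °C mutants (log2 fold change -0.41 ± 0.07, SE, adjusted p = 4.77e-05). miR-85-3p (log2 fold change -0.64 ± 0.07, SE, adjusted p = 3.9e-08) and miR-246-3p (log2 fold change -0.50 ± 0.07, SE, adjusted p = 2.01e-06) were also lower, and miR-228-5p was higher (log2 fold change 0.39 ± 0.08, SE, adjusted p = 0.000316), though not with plain eBayes (adjusted p = 0.0525). miR-34-5p, a stress-responsive miRNA, had 287, 243, 253 and 298 rescaled rpm in 25 °C mutants, against 292, 267 and 267 in 20 °C mutants and did not pass (log2 fold change -0.03 ± 0.08, SE, adjusted p = 0.79).

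The somatic tissue list overlapped between groups as a share of miRNA reads (28.5 to 32.5% in 25 °C mutants and 28.5 to 30.8% in 20 °C mutants). Muscle miR-1-3p, the most abundant miRNA in every mutant library, had 204399, 186674, 197887 and 242415 rescaled rpm in 25 °C mutants, against 223162, 180221 and 198287 in 20 °C mutants (log2 fold change 0.05 ± 0.09, SE, adjusted p = 0.689). Of 6 tested members, miR-77-3p was lower (log2 fold change -0.57 ± 0.09, SE, adjusted p = 3.22e-06) and the neuronal miR-124-3p was higher (log2 fold change 0.61 ± 0.19, SE, adjusted p = 0.0106), although the groups overlapped for miR-124-3p and its call was lost without 20 °C mutant replicate 3 (adjusted p = 0.137) and with plain eBayes (adjusted p = 0.0625). Among 74 hairpins with both arms tested, both arms were called for 38, of which 14 had both higher, 19 both lower and 5 (miR-45, miR-73, miR-77, miR-87 and miR-90) opposite changes. The opposite arms of miR-45 rest on the 3p value that it shares with miR-44. The log2 changes of the arms correlated across these 74 hairpins (Pearson r = 0.66, Spearman rho = 0.60), as a description across hairpins of the same libraries.

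Reads whose 5′ end was shifted from that of the annotated miRNA, called iso-miRs, totalled 4005 to 4380.1 rpm in 25 °C mutants and 4046 to 4108 rpm in 20 °C mutants, with overlap. Relative to miRNA reads they were 0.571, 0.572, 0.574 and 0.574% in 25 °C mutants, against 0.533, 0.548 and 0.549% in 20 °C mutants, without overlap (exact permutation test, p = 0.0571). In wild-type the ratio was 0.568 ± 0.00827% at 25 °C and 0.559 ± 0.00549% at 20 °C. Of 106 iso-miR features tested, 29 (27.4%) were higher and 22 (20.8%) lower. The ends were miR-1020-3p (log2 fold change 1.62 ± 0.10, SE, adjusted p = 7.37e-13) and miR-70-3p (log2 fold change -1.82 ± 0.10, SE, adjusted p = 5.72e-14), whose annotated miRNAs changed in the same direction. miR-57-5p (log2 fold change 1.47 ± 0.13, SE, adjusted p = 2.62e-10) and miR-4816-3p (log2 fold change 1.26 ± 0.15, SE, adjusted p = 1.21e-07) iso-miRs were also higher, and those of miR-39-3p (log2 fold change -1.16 ± 0.12, SE, adjusted p = 1.44e-08) and miR-5592-3p (log2 fold change -0.91 ± 0.13, SE, adjusted p = 1.28e-06) lower. For miR-1020-3p the iso-miR to mature ratio was 259 ± 65.7% in 25 °C mutants and 132 ± 11.5% in 20 °C mutants. In wild-type it was 182 ± 27.7% at 25 °C and 101 ± 17.1% at 20 °C, so the direction was shared. For miR-39-3p and miR-57-5p this ratio overlapped between 25 °C and 20 °C mutants. Of the abundant iso-miRs, those of miR-48-5p (log2 fold change 0.91 ± 0.08, SE, adjusted p = 2.71e-10) and miR-240-3p (log2 fold change 0.44 ± 0.10, SE, adjusted p = 0.00161) were higher, those of miR-35-3p lower (log2 fold change -0.38 ± 0.09, SE, adjusted p = 0.0017), while the iso-miRs of miR-1-3p and miR-246-3p had log2 changes of 0.07 and -0.18 and did not pass. With plain eBayes the calls of the miR-240-3p and miR-35-3p iso-miRs were lost (adjusted p = 0.0743 and 0.0868), and those of miR-35-3p were lost too with piRNA-total (-0.19) and CSR-class scaling (-0.22).

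Other reads from pre-miRNA hairpins, which match neither the miRNA nor its iso-miRs, were 0.226, 0.232, 0.221 and 0.21% of miRNA reads in 25 °C mutants, against 0.0914, 0.128 and 0.0978% in 20 °C mutants (exact permutation test, p = 0.0571). In wild-type they were 0.116 ± 0.00172% at 25 °C and 0.0678 ± 0.00384% at 20 °C. Most of the difference lay in the hairpins mir-8196.1 and mir-8196.2 (C11H1.12) on chromosome X. mir-8196.1 had 845, 794, 831 and 884 rescaled rpm in 25 °C mutants, against 159, 179.1 and 174 in 20 °C mutants (log2 fold change 2.30 ± 0.08, SE, adjusted p = 8.74e-19), and its wild-type change was 2.08. For C11H1.12 the values were 109, 96.96, 110.1 and 95.03 rescaled rpm in 25 °C mutants, against 19.9, 23.5 and 22.2 in 20 °C mutants (log2 fold change 2.23 ± 0.09, SE, adjusted p = 1.04e-16). Without this pair the ratio was 0.0848 to 0.0995% in 25 °C mutants and 0.0684 to 0.0982% in 20 °C mutants, with overlap (exact permutation test, p = 0.229).

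Of 36 hairpin features tested, 10 (27.8%) were higher and 4 (11.1%) lower, but 2 were lower without 20 °C mutant replicate 1. mir-45 was higher (log2 fold change 1.63 ± 0.11, SE, adjusted p = 3.02e-12), and F39B1.3 (log2 fold change 1.06 ± 0.08, SE, adjusted p = 2.65e-11) shared its values with the miR-1829 arms above. mir-42 had 34.9, 31.5, 33.05 and 31.2 rescaled rpm in 25 °C mutants, against 56.8, 47.96 and 65.95 in 20 °C mutants (log2 fold change -0.79 ± 0.10, SE, adjusted p = 4.01e-07), and mir-74 was also lower (log2 fold change -0.60 ± 0.15, SE, adjusted p = 0.00229). The mutant change of mir-42 minus its wild-type change was -1.94 ± 0.16 (SE, adjusted p = 5.05e-11). B0361.12, the mir-2214 hairpin, had 165, 124, 104 and 133 rescaled rpm in 25 °C mutants, against 73.9, 257 and 60.6 in 20 °C mutants, so 20 °C mutant replicate 2 stood apart and the feature did not pass (log2 fold change 0.30 ± 0.55, SE, adjusted p = 0.717). Without that library its log2 change was 0.94 and passed the test (adjusted p = 6.79e-05). The hairpin mir-254 had a log2 change of 0.02.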

How the data were processed

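Small RNAs of 14 whole-animal libraries were sequenced, and 7 mutant libraries form the comparison. The authors trimmed and filtered reads with fastp, aligned them to the WS279 C. elegans genome release with bowtie, assigned and counted features with tinyRNA and deposited RPM values in a table per temperature. The class column of the 20 °C table stood 1 line off and was moved back, after which the classes of all 23869 features matched those of the 25 °C table. Between 89.8% and 91.5% of low values were whole reads (tolerance 0.0051 rpm), so no count test was run.

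Libraries were rescaled by the median of ratios. Features averaging at least 1 rpm were tested with limma 3.58.1 (R 4.3.3) on log2(rescaled rpm + 0.1), with trend and robust options and Benjamini-Hochberg adjustment at 0.05. Wild-type changes and the mutant minus wild-type difference came from a fit over 14 libraries, for features averaging at least 1 rpm over them. Class totals used deposited rpm, and totals and ratios were compared by exact permutation in scipy 1.17.1. Replicate pairs differed by more than sampling noise (median chi-square 1.17 to 2.01 over features, against 0.455), and no libraries were identical.

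The naming rule took miRNAs of fixed lists, the 10 largest miRNA changes each way among calls without overlap and, for other classes, the 3 largest each way at a mean of at least 5 rpm. Members and lists were chosen with earlier results of these data known. The most abundant features and the 20 features given a mutant minus wild-type value were chosen after their values were seen. Hairpin positions and introns are from a WBcel235 gene annotation, which matched 424 of 437 miRNA names. Alternatives covered pseudocounts of 0.01 and 1 rpm, filters, scalings, the replicate block and leaving out each library. No sequences are printed.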

Additional observations from a re-analysis of the deposited data

Results flagged for a closer look

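The change of a feature in mutants minus its change in wild-type passed the limma test, with adjustment over 7119 features, for a set of named features. On the log2 scale the difference was -0.86 for miR-35-3p, -0.95 for miR-36-3p, -1.04 for miR-37-3p, -1.20 for miR-38-3p, -1.25 for miR-39-3p, -1.001 for miR-40-3p, -0.49 for miR-41-3p and -1.68 for miR-42-3p. It was -1.13 for miR-237-5p and -1.82 for miR-70-3p. It was 0.83 for miR-62, 0.99 for miR-1020-3p, 0.64 for miR-1829a-5p and 0.84 for miR-57-5p. Among ALG-class 26G siRNAs it was 4.06 for H08M01.1, 2.24 for C38C10.3 and -0.55 for Y57G11C.36. For the mir-42 hairpin it was -1.94. For ALG-class H08M01.1 the difference was 4.06, but the feature passed the filter only through the 25 °C mutants. Its value is therefore a description, with no test. With piRNA totals set equal the difference missed the threshold for miR-62 (0.34, adjusted p = 0.0502) and miR-1829a-5p (0.15, adjusted p = 0.401). With CSR-class size factors it did so for miR-35-3p (-0.20), miR-36-3p (-0.28), miR-37-3p (-0.38) and miR-40-3p (-0.34), and with miRNA size factors for miR-41-3p (-0.19) and Y57G11C.36 (-0.24). Signs that depended on the scaling are given in the next part.

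A single 25 °C mutant library lay apart from the other 3 for 12 values, measured as its gap to the nearest library divided by the range of the group. Chance gives this for about 1 in 20 groups. The values screened were 10 totals, 38 ratios and 143 named features, so 12 is near that rate and the list is a description only. The ratio was 0.965 for the CSR-class total, 0.878 for the miR-64 cluster share, 0.838 for the miR-71-5p share and 0.868 for the miR-35-3p share of miRNA reads. For rescaled levels it was 0.845 for miR-55-3p, 0.880 for miR-786-3p, 0.8294 for miR-1018, 0.860 for miR-4926, 0.841 for miR-4936 and 0.872 for the CSR-class siRNAs of Y55F3AR.2. It was 0.839 for the iso-miRs of miR-57-5p and 0.839 for the mir-254 hairpin.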

How the results depend on the processing

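Among 143 named features in the comparison of 25 °C with 20 °C mutants, 20 lost a call, 17 gained one and 18 changed sign under at least 1 alternative. Of the 20 with a mutant minus wild-type value, 8 lost a call, 2 gained one and 4 changed sign. The cause was not tested. Neither pseudocount moved the count of calls over all features, miRNAs or ALG-class siRNAs by over 1.5 times. With no filter, 902 ALG-class features were higher. With a mean of at least 5 rpm, 614 features were higher and 991 lower, 43 of the higher ones ALG-class. With a mean of at least 1 rpm in 20 °C mutants alone, a filter added after seeing the data, 96 ALG-class features were higher. With the fit over 14 libraries, which took its spread, size factors and filter from all of them, 214 of 218 tested were. Fewer features were tested in the last 3 settings.

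Log2 changes that turned round with rpm as deposited were -0.037 for miR-56-3p, -0.019 for miR-80-3p, -0.025 for miR-238-3p, -0.0077 for miR-1-3p, -0.056 for CSR-class C41G7.2 and -0.040 for mir-254. With piRNA totals set equal, 962 features were lower, and the changes were 0.048 for let-7-5p, 0.15 for miR-34-5p, 0.17 for miR-64-5p, 0.15 for miR-66-5p, 0.044 for ALG-class Y57G11C.36, 0.071 for CSR-class F15E6.1, 0.011 for T05E12.10 and 0.078 for K02E2.6 (both ERGO-class), 0.0051 for miR-246-3p iso-miRs and 0.17 for WAGO-class Y17D7C.3. With size factors from miRNAs they were -0.0092 for miR-56-3p, -0.027 for C41G7.2 and -0.012 for mir-254. With CSR-class size factors 968 features were lower, and the changes were 0.022 for let-7-5p, 0.13 for miR-34-5p, 0.14 for miR-64-5p, 0.12 for miR-66-5p, 0.018 for Y57G11C.36, 0.045 for F15E6.1, 0.051 for K02E2.6 and 0.14 for Y17D7C.3. With the fit over 14 libraries, and so with other size factors, they were 0.0087 for miR-34-5p, 0.023 for miR-64-5p, 0.0035 for miR-66-5p and 0.025 for Y17D7C.3. The log2 change of the miRNA total was -0.048 in rpm, 0.018 as a share of listed rpm and 0.051 after rescaling.

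The mutant minus wild-type difference depended on scaling throughout, with 1291 features more positive and 1301 more negative in the reported fit. It had 804 more negative with rpm as deposited. With piRNA totals set equal, 364 were more positive and 2651 more negative, 4 miRNAs were more positive, miR-58b-5p had -0.39 and mir-8196.1 -0.23. With miRNA size factors 2032 were more positive and 469 more negative, with 51 miRNAs more positive and 0 ALG-class features more negative. With CSR-class size factors 3052 were more positive and 111 more negative, with 95 miRNAs more positive, 25 more negative and 0 ALG-class features more negative, while miR-41-3p had 0.17 and Y57G11C.36 0.11.

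Without each library in turn, between 1286 and 1397 features were higher, between 1266 and 1551 lower, and between 337 and 415 ALG-class features higher. Log2 changes that crossed 0 ran between -0.0099 and 0.079 for miR-56-3p, -0.069 and 0.026 for C41G7.2, -0.10 and 0.091 for mir-254, -0.078 and 0.021 for miR-34-5p, -0.10 and 0.028 for miR-66-5p, -0.075 and 0.062 for miR-64-5p, -0.058 and 0.043 for Y17D7C.3, -0.032 and 0.13 for miR-1-3p, -0.015 and 0.14 for its iso-miRs, -0.044 and 0.11 for miR-238-3p, and -0.10 and 0.94 for B0361.12. For shares of miRNA reads they ran between -0.035 and 0.084 for the miR-64 cluster, -0.11 and 0.042 for the lin-4 family, and -0.032 and 0.033 for the somatic tissue list. Same-numbered 25 °C and 20 °C mutant libraries had deviations correlated at -0.025 to -0.061, so the numbers do not pair them. With the replicate block 1394 features were higher and 1464 lower, with log2 changes of 0.059 for miR-64-5p, -0.026 for miR-1-3p and -0.0064 for its iso-miRs, and the mutant minus wild-type difference had 1313 more positive and 1289 more negative.

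The number of libraries limits the exact tests of totals and ratios, none of which can fall below p = 0.0571. Values near 0.1 rpm stand for a few reads.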
